A study of Macaca mulatta with 2 samples.

Results

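The genes of the cytosolic ribosomal proteins were described in 2 spatial transcriptomic sections of rhesus macaque posterior eyecup. Members were the rows of the feature list whose symbol starts with RPL or RPS and a digit, or is RPSA or one of RPLP0, RPLP1 and RPLP2, without the RPS6K kinases. The rule found 72 of 26533 rows. Of these, 37 rows are core proteins of the large subunit, 26 are core proteins of the small subunit, 8 are paralogs (RPL22L1, RPL7L1, RPS27L, RPL10L, RPL36AL, RPL3L, RPS4Y1 and RPS4Y2), and 1 is RPS19BP1, which encodes a protein that binds RPS19. RPS27A had 2 rows, given here with their identifiers.

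NHP1 was a 5-year-old male that received AAV2-CAG-hRPE65 under the retina of both eyes. NHP2 was a 6-year-old male that received AAV8-GRK1-hRPGR in 1 bleb of the eye and AAV8-GRK1-mScarlet in another. CAG is a ubiquitous promoter and GRK1 a photoreceptor promoter, and each eye was also given triamcinolone beside the globe at surgery. Both sections were 10 µm thick, came from 4 mm punches of the right eyes and lay outside the blebs, so that neither animal is free of vector or steroid. Each animal gave 1 section, spots are not replicates, and no test was made. Intervals are exact 95% intervals and cover counting error only.

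Ribosomal proteins and ribosomal RNA together form the small subunit, which reads the mRNA, and the large subunit, which joins the amino acids. Their mRNAs are short and abundant, and they begin with a pyrimidine tract through which mTOR signalling adjusts their translation as a group. Retina holds neurons of very different size and metabolism beside glia, whereas sclera is collagen-rich connective tissue made by sparse fibroblasts.

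Spots were grouped by their expression without the member genes, and each group was named by markers of inner retina, photoreceptors, retinal pigment epithelium (RPE), choroid or sclera. NHP1 gave inner retina, photoreceptor, photoreceptor with RPE, RPE with choroid and sclera, and sclera regions. NHP2 gave inner retina, photoreceptor with RPE, RPE and sclera regions, and 108 spots with 4946 UMIs in all stayed without a name. A spot can hold several cells, and fewer cells of a type and less RNA per cell cannot be told apart. Neural retina below means the inner retina and photoreceptor regions of NHP1 and the inner retina region of NHP2. Outer coat means the regions with sclera markers, which are the RPE, choroid and sclera region and the sclera regions in NHP1 and the sclera regions in NHP2. The RPE region of NHP2 is not part of it, and RPE markers had a summed level of 204 in the outer coat of NHP1 and 70.6 in that of NHP2. Levels are UMIs per 10000 UMIs of the same spots.

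The 534 tissue spots of NHP1 held 1484784 UMIs with a median of 1473.5, and the 470 tissue spots of NHP2 held 805726 with a median of 370.5. Sclera markers had a summed level of 5.02 in neural retina and 156 in outer coat of NHP1, and of 7.97 and 564 in NHP2. Photoreceptor markers were still at 85.7 in the outer coat of NHP1 and at 27.8 in that of NHP2, while inner retina markers were at 36.7 and 33.6. Immune markers were at 3.48 and 19.6 in neural retina and outer coat of NHP1, and at 6.67 and 15.4 in NHP2. The part of these differences in the results below was not tested.

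The first 150 coding bases of 3 members are shown because these genes lay toward opposite ends of the comparison of outer coat with neural retina, and because they differ in base composition. They were read from RefSeq transcripts placed on Mmul_10, 5′ to 3′ on the coding strand, with every G and C in capitals. RPL38 was low in sclera of NHP2, and RPL35 and RPL28 were high.
RPL38: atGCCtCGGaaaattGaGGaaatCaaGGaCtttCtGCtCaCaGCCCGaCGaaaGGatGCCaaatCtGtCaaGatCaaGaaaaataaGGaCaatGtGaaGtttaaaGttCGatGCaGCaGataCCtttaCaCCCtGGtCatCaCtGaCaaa
RPL35: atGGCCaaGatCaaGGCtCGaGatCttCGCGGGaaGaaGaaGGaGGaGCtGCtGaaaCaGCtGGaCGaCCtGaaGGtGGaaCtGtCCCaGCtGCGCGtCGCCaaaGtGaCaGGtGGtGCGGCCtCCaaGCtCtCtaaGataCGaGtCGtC
RPL28: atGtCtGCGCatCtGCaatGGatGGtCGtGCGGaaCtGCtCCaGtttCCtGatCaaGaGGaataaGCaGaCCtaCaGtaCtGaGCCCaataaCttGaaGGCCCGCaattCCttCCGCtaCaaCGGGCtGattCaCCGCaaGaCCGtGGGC

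RPL38 lies on chromosome 16 from 70538026 to 70544194 on the plus strand with 5 exons, and its mRNA has 48.7% GC. RPL35 lies on chromosome 15 from 15811369 to 15816547 on the plus strand with 4 exons and has 57.4% GC. RPL28 lies on chromosome 19 from 55137330 to 55139757 on the plus strand with 5 exons and has 60.0% GC. The coding start of RPL35 and RPL28 was taken from the longest open reading frame of the transcript.

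Ribosomal protein mRNAs took a similar share of the UMIs in every named layer. Over tissue, the members held 107357 UMIs in NHP1, or 723 per 10000 (719 to 727), and 52035 in NHP2, or 646 (640 to 651). In NHP1 the level was 693 in inner retina (687 to 699), 731 in the photoreceptor regions (723 to 738), 726 where photoreceptor and RPE markers met (695 to 758), 795 in the RPE, choroid and sclera region (779 to 811) and 805 in sclera (788 to 821). In NHP2 it was 640 in inner retina (633 to 648), 683 in the photoreceptor and RPE regions (671 to 695), 659 in RPE (626 to 693) and 618 in sclera (606 to 630). The order of the layers thus differed. In NHP1, sclera and the RPE, choroid and sclera region were above both neural layers and did not differ from each other beyond their intervals. In NHP2, sclera was below inner retina, and its interval met that of RPE.

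The members were also counted off the tissue, at 849 per 10000 in NHP1 (841 to 857) and 824 in NHP2 (804 to 845). These levels were above those of every named layer of the same section. More than 3 spot spacings from any tissue spot they were 782 (765 to 800) and 496 (464 to 530). The part of such free RNA in the layers' levels was not tested. Mitochondrially encoded genes spread far wider across the layers than the members did. They were at 805 in inner retina and 372 in sclera of NHP1, and at 690 and 222 in NHP2.

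**Figure D1:**
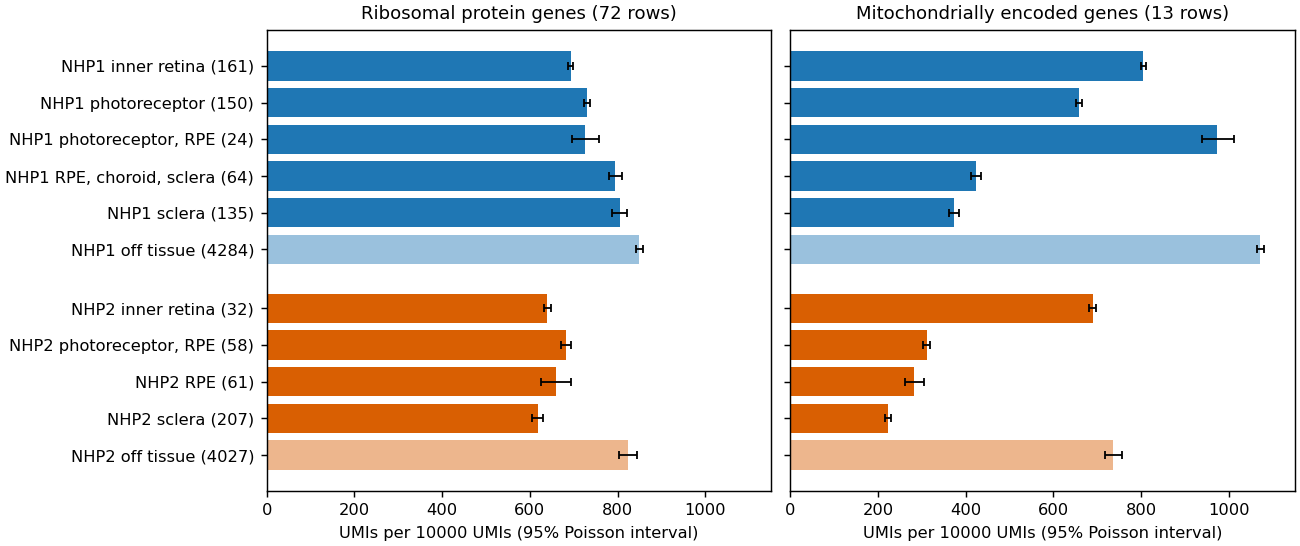
UMIs per 10000 UMIs of the member genes (left) and of mitochondrially encoded genes (right) by region, with the number of spots in brackets; bars start at 0, error bars are exact 95% Poisson intervals and pale bars are spots off the tissue. Named layers lie between 618 and 805 for the members.

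Single spots were more scattered than the regions. Among spots with at least 200 UMIs, the member level in neural retina of NHP1 ran from 358 through a median of 685 to 1324, and in its outer coat from 284 through 813 to 1313. In NHP2 it ran from 461 through 621 to 1347 in inner retina and from 175 through 550 to 1343 in sclera. The ranges overlapped almost fully in both sections. The summed large and small subunit shares of a spot correlated at a Spearman rho of 0.56 over 509 spots of NHP1 and 0.47 over 306 spots of NHP2, values that share library, depth and total.

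**Figure D2:**
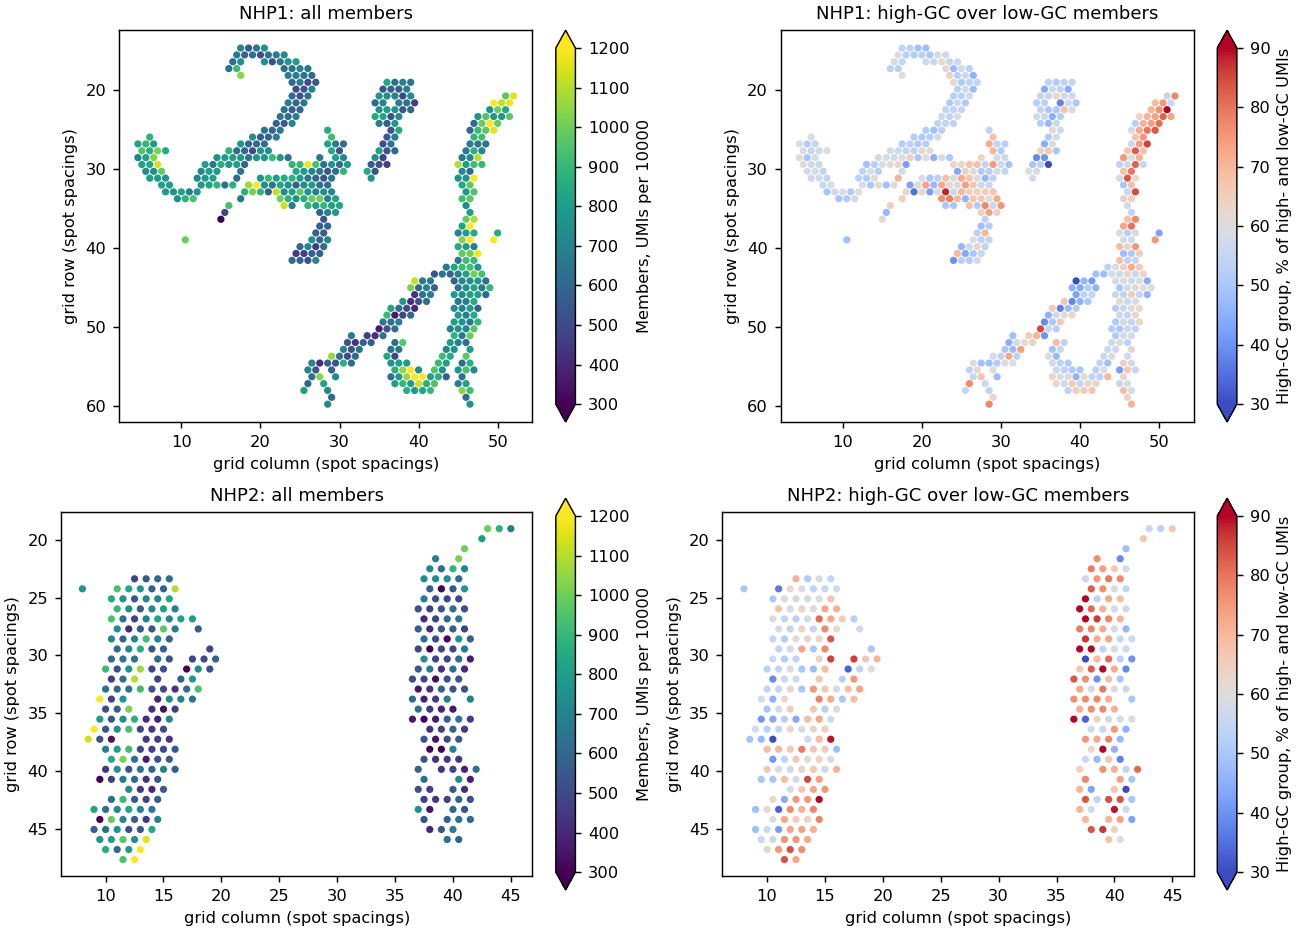
Spots with at least 200 UMIs at their grid positions, in spot spacings, coloured by the members' UMIs per 10000 (left) and by the share of the high-GC group among the UMIs of the high-GC and low-GC groups of members (right, in percent), with NHP1 above and NHP2 below. The strips rich in high-GC members follow the sclera, where the ratio of the groups was 1.77 in NHP1 and 2.43 in NHP2 against 1.20 and 1.22 in inner retina.

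As a sum, the members were higher in outer coat than in neural retina of NHP1 and slightly lower in NHP2. The ratio was 1.13 in NHP1 (1.11 to 1.15), from 800 against 708 per 10000, and 0.965 in NHP2 (0.943 to 0.987), from 618 against 640. Large subunit proteins were at 1.14 and 0.982 and small subunit proteins at 1.11 and 0.958 in the 2 animals. The interval of the large subunit in NHP2 included 1 (0.952 to 1.01), and that of the small subunit did not (0.925 to 0.992). With mitochondrially encoded genes left out of the total the ratios were 1.09 and 0.919, and with the mean of the spots' shares in place of the pooled sum they were 1.20 and 0.846. Without the 50 most abundant and the mitochondrially encoded genes in the total, the ratio of NHP2 was 0.984 with an interval that included 1 (0.962 to 1.01). The difference between the animals had no replicate.

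Of the 68 members with at least 50 UMIs in the spots compared in NHP1, 10 were at least 1.5-fold higher in outer coat, against 14.6% of all 5251 genes, which is the same share. None was at least 1.5-fold lower, against 35.2% of all genes. In NHP2, 11 of 67 were higher against 19.6% of 2529 genes, and 22 were lower against 48.9%. Ratios were above 1 for 52 of the 68 in NHP1, against 35.8% of all genes, and for 26 of the 67 in NHP2, against 32.9%. The median ratio of the members was 1.16 in NHP1 and 0.855 in NHP2, and that of all genes was 0.811 and 0.684. No member was thus 1.5-fold lower in the outer coat of NHP1, though 16 of the 68 had ratios below 1. Members of NHP2 passed the 1.5-fold bound on both sides.

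The spread among members was wide in NHP2 and ordered alike in both animals. Over 67 members, the log2 ratios had an SD of 0.34 in NHP1 and 0.85 in NHP2, and the 2 sets of ratios correlated across genes at a Spearman rho of 0.78. The same value was 0.74 over 2420 other genes, so this agreement was not particular to ribosomal proteins. Intervals lay wholly above 1 in both animals for 17 members, against 12.5% of all 2491 genes measured in both, and wholly below 1 in both for 9, against 27.9%. Intervals are narrower for abundant genes, as most members are. Among the 17 were RPSA, RPL7, RPL8, RPL27A, RPS3, RPL35, RPL31, RPL13, RPL18, RPL13A, RPS19, RPS9, RPS15 and RPL28. The 9 were RPL15, RPL32, RPS29, RPL30, RPS24, RPS7, RPS27A (ENSMMUG00000015563), RPL38 and RPL17. With each spot assigned by its highest marker score, some of their NHP1 intervals included 1. These were RPL15 at 0.956 (0.803 to 1.13), RPL32 at 1.05 (0.945 to 1.16), RPL38 at 0.956 (0.829 to 1.10) and RPL17 at 0.902 (0.796 to 1.02). Those of RPL30, RPS7 and RPS27A (ENSMMUG00000015563) stayed below 1 in that setting, and RPS29 and RPS24 were not recomputed in it. For 5 members, RPS23, RPL37, RPS21 and RPL19 among them, they lay above 1 in NHP1 and below 1 in NHP2, against 1% of all genes, and for 0 the other way, against 0.241%. Members at least 1.5-fold higher in both included RPL13, RPL28, RPL35 and RPL7. There were 6 in all, which are 66.7% of the 9 in NHP1 and 54.5% of the 11 in NHP2. They are 6 of 67 members, against 12.1% of all genes.

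**Figure D3:**
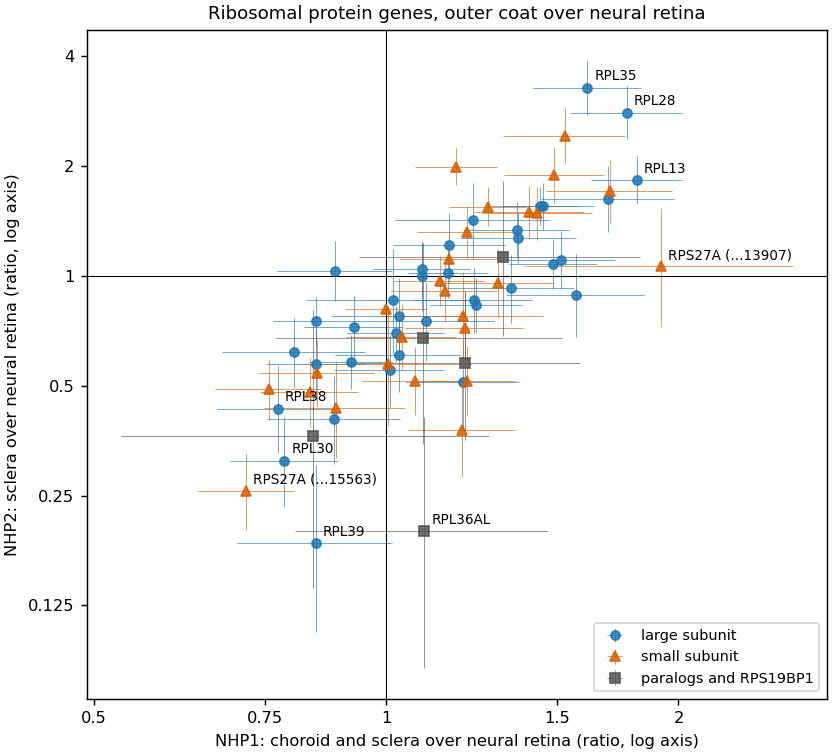
Ratio of the level in outer coat over neural retina in NHP1 (horizontal) and NHP2 (vertical) for 67 members, both axes logarithmic, with exact 95% conditional binomial intervals; circles are large subunit proteins, triangles small subunit proteins and squares paralogs with RPS19BP1. The vertical axis spans a range from 0.185 for RPL39 to 3.27 for RPL35, the horizontal axis from 0.716 to 1.92, both of these for rows of RPS27A.

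Among large subunit proteins, RPL35, which sits at the exit of the nascent chain tunnel, had the highest ratio in NHP2. Its level was 8.0 in inner retina, 8.67 in photoreceptor, 10.0 in RPE with choroid and sclera, and 16.9 in sclera of NHP1. In NHP2 it was 5.85 in inner retina, 9.07 in photoreceptor with RPE, 10.9 in RPE and 19.1 in sclera. The level was highest in sclera of both sections, and the ratio of outer coat over neural retina was 1.61 in NHP1 (1.42 to 1.83) and 3.27 in NHP2 (2.76 to 3.88).

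RPL28, a large subunit protein that bacteria lack, was at 6.58 in inner retina of both animals. It was at 13.6 in sclera of NHP1 and 18.4 in sclera of NHP2, with ratios of 1.77 (1.55 to 2.02) and 2.79 (2.37 to 3.30). RPL13 was alike in both animals, at 11.1 and 20.9 in inner retina and sclera of NHP1 and at 10.2 and 18.6 in those of NHP2. Its ratios were 1.81 and 1.83, and no overlap of intervals remained between the 2 layers in either section. RPL7 stood out by its photoreceptor level of 4.01 in NHP1, which was 0.645 of that in inner retina (0.542 to 0.764), and it was the 1 member at least 1.5-fold lower there, against 19% of all genes.

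RPL39, a very small protein that lines the exit tunnel, had the lowest ratio of NHP2. It was at 5.62 in inner retina, 4.40 in photoreceptor with RPE, 4.35 in RPE and 1.04 in sclera (0.605 to 1.66), a ratio of 0.185 (0.106 to 0.302). In NHP1 it was at 7.30 in inner retina and 4.08 in sclera but 7.56 in the RPE, choroid and sclera region, and the ratio was 0.846 (0.703 to 1.01). RPL38, which in mice is needed for translation of Hox mRNAs, had ratios of 0.773 (0.669 to 0.890) and 0.432 (0.326 to 0.564). RPL30 went from 14.2 in inner retina to 10.8 in sclera of NHP1 and from 11.4 to 3.54 in NHP2, with ratios of 0.785 and 0.312. RPL15 had ratios of 0.804 and 0.617, and RPL17 of 0.847 and 0.573.

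The acidic stalk proteins draw elongation factors to the ribosome. RPLP1 had ratios of 1.16 (1.05 to 1.27) and 1.01 (0.869 to 1.18), and RPLP2, 1 of the 10 members at least 1.5-fold higher in NHP1, of 1.51 (1.33 to 1.72) and 1.10 (0.917 to 1.32). RPL5, which carries a small ribosomal RNA into the large subunit and binds MDM2, had 1.35 (1.16 to 1.56) and 0.922. The interval of the latter included 1 (0.743 to 1.14). RPL32 and RPL37A, among the 10 members with most UMIs, had 0.848 and 0.751, and 0.921 and 0.580. RPL32 turned to 1.05 in NHP1 when each spot was assigned by its highest marker score. RPL13A, also among the 10, which takes part in silencing of inflammatory mRNAs once released from the ribosome, was higher in outer coat of both animals. It was at 18.3 in neural retina and 26.4 in outer coat of NHP1 and at 17.3 and 26.8 in NHP2, ratios of 1.44 and 1.55.

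Of the other large subunit proteins, RPL8 was at 1.45 (1.28 to 1.64) and 1.55 (1.34 to 1.79), and RPL18 at 1.37 and 1.27, alike in both animals. RPL9 was at 1.16 and 1.21, with an interval that reached below 1 in NHP2 (0.988 to 1.49). RPL6 was at 0.884 (0.753 to 1.03) in NHP1 and at 0.405 (0.305 to 0.530) in NHP2, where it went from 9.35 in inner retina to 3.79 in sclera. RPL19 was at 9.66 in neural retina and 11.6 in outer coat of NHP1, and at 7.90 and 4.03 in NHP2.

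Among small subunit proteins, RPS15 was at 19.1 in inner retina and 25 in sclera of NHP1 and at 16.5 and 25.5 in NHP2, with ratios of outer coat over neural retina of 1.27 (1.16 to 1.39) and 1.54 (1.36 to 1.75). RPS9 had ratios of 1.49 and 1.89. RPSA, which is also known as a laminin receptor, was at 1.40 (1.23 to 1.60) and 1.49 (1.26 to 1.76). RPS28 and RPS26, which lie near the exit of the mRNA channel and were among the most abundant rows, were at 1.0 and 0.811, and at 1.14 and 0.969.

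The main row of RPS27A (ENSMMUG00000015563), whose protein is made as a fusion with ubiquitin, went from 19.2 in inner retina through 21.4 in photoreceptor to 12.3 in sclera of NHP1. In NHP2 it was 18.3 in inner retina, 20.5 in photoreceptor with RPE, 8.69 in RPE and 4.70 in sclera. The ratios were 0.716 (0.638 to 0.803) and 0.257 (0.201 to 0.325), so the row was low in sclera of both. RPS7, mutated in some patients with Diamond-Blackfan anaemia, followed with 0.757 and 0.488. RPS29 was at 0.834 and 0.479 and RPS13 at 0.887 and 0.435. The second row of RPS27A (ENSMMUG00000013907) had 208 and 237 UMIs and ratios of 1.92 and 1.06, and the share of reads that 2 such copies lose to each other is not known.

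**Figure D4:**
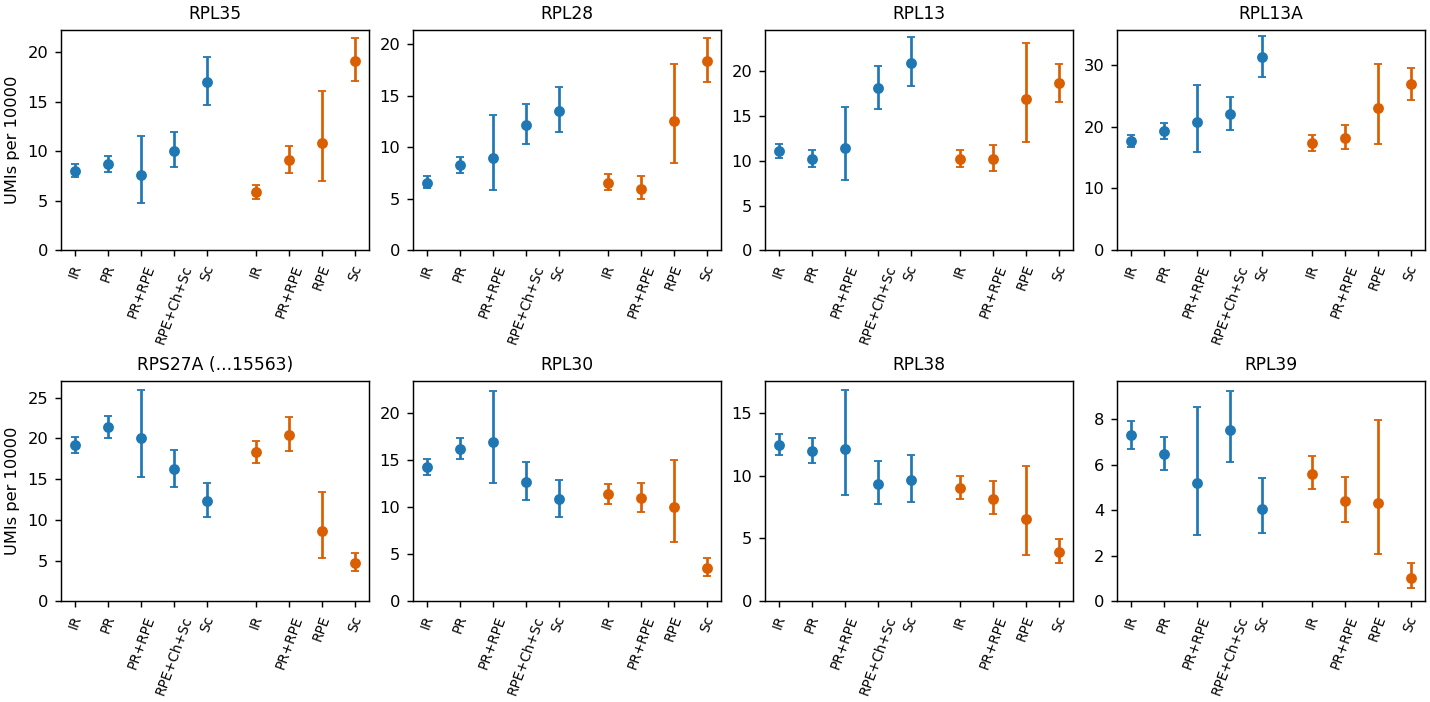
UMIs per 10000 of 8 members by region, NHP1 in blue and NHP2 in orange, with exact 95% Poisson intervals (IR inner retina, PR photoreceptor, Ch choroid, Sc sclera). The upper row shows members that were higher in sclera, such as RPL35 at 16.9 and 19.1, and the lower row members that were lower, such as RPL39 at 4.08 and 1.04.

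The paralogs were counted far less than the core genes. RPL10L and RPL3L had 0 UMIs in both sections, where a count of 0 allows up to 3 UMIs. RPL7L1 had 46 and 29 UMIs, too few for the comparison. RPL22L1, a paralog of the core protein RPL22, had 125 and 57 UMIs against 1303 and 694 for RPL22. RPL36AL was at 2.16 and 2.36 in neural retina and outer coat of NHP1, and at 2.44 and 0.489 in NHP2, with ratios of 1.09 (0.805 to 1.46) and 0.200 (0.0841 to 0.409). RPS27L had ratios of 1.32 (0.937 to 1.83) and 1.13 (0.682 to 1.81), and RPS4Y1 of 1.21 (0.909 to 1.58) and 0.578 (0.355 to 0.906). RPS4Y2 had 0.840 (0.533 to 1.28) and 0.364 (0.139 to 0.807), and RPS19BP1 had 1.09 (0.770 to 1.52) and 0.674 (0.346 to 1.23). Among the ratios given here, only the NHP2 intervals of RPL36AL, RPS4Y1 and RPS4Y2 excluded 1. Outer coat of NHP2 held 8 UMIs of RPL36AL, 7 of RPS4Y2 and 14 of RPS19BP1.

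Members with GC-rich mRNAs tended to be high in outer coat and members with GC-poor mRNAs low. Across members, GC content of the mRNA and the ratio correlated at a Spearman rho of 0.50 over 64 genes in NHP1 and 0.48 over 63 in NHP2, while mRNA length gave 0.18 and 0.09. Over other genes, GC content gave 0.31 in NHP1 and 0.25 in NHP2, so the direction was not particular to the members. These values are across genes of 1 section, which are not independent.

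Split into 3 groups by GC content, the 21 members with 41.1 to 47.2% GC had a pooled ratio of 0.981 in NHP1 (0.95 to 1.01) and 0.675 in NHP2 (0.642 to 0.711). The 23 with 47.5 to 52.9% had 1.09 and 0.904. The 21 with 53.3 to 62.4% had 1.34 (1.30 to 1.37) and 1.35 (1.30 to 1.40), and 21 of them were above 1 in NHP1 and 14 in NHP2, where 35.8% and 32.9% of all genes were. The pooled ratio of the high-GC group was thus alike in both animals, and that of the low-GC group was not. In sclera, the low-GC group was at 180 per 10000 in NHP1 and 115 in NHP2, against 186 and 171 in inner retina. Its level off the tissue was 218 and 212. The part of base composition itself in these ratios was not tested.

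**Figure D5:**
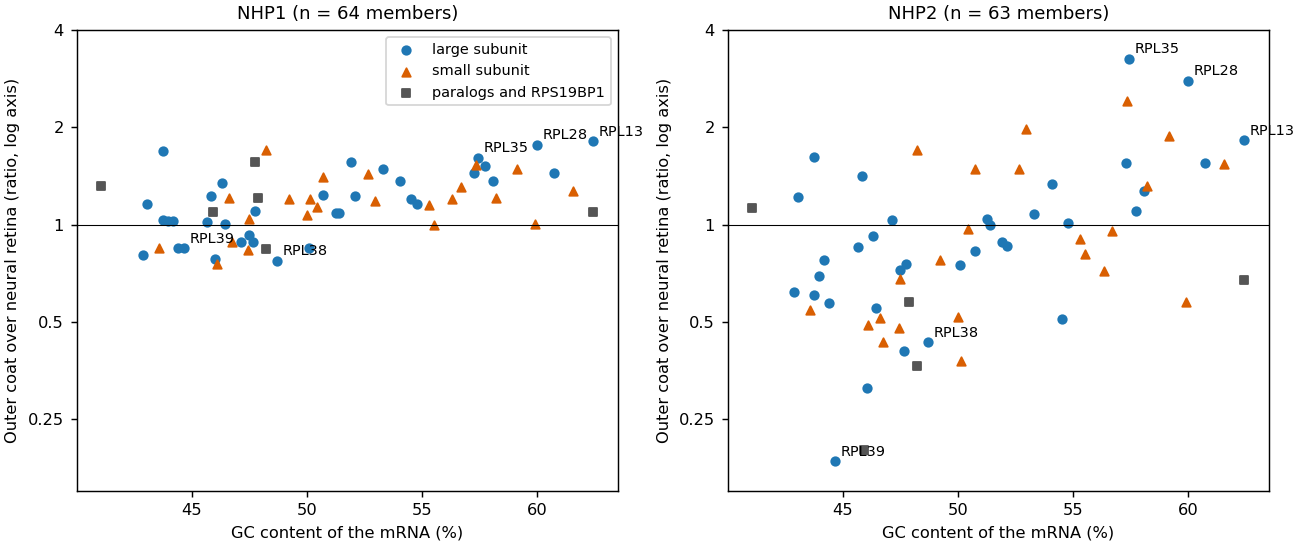
Ratio of the level in outer coat over neural retina (logarithmic axis) against the GC content of the member's mRNA in percent, for 64 members in NHP1 and 63 in NHP2, with circles for large subunit proteins, triangles for small subunit proteins and squares for paralogs with RPS19BP1. Members such as RPL28 with 60.0% GC lie high and members such as RPL39 with 44.7% GC lie low. Other members depart from this, such as RPL7 with 43.8% GC at 1.69 and 1.62, and RPS2 with 59.9% GC at 1.0 and 0.574.

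The photoreceptor regions were also set over inner retina. Those of NHP2 held RPE markers as well, at 182 per 10000 against 26.8 in inner retina, a ratio of 6.80. In the photoreceptor regions of NHP1, RPE markers were at 1.98 times the level of inner retina (1.88 to 2.08). The photoreceptor regions of NHP1 had 1.05 times the level of inner retina (1.04 to 1.07), and the photoreceptor and RPE regions of NHP2 1.07 times (1.04 to 1.09). In NHP1, 44 of 68 members were above 1, against 48.5% of all genes, and 0 were at least 1.5-fold higher, against 13%. In NHP2, 40 of 67 were above 1, against 50.9%, 5 were at least 1.5-fold higher, against 18.9%, and 0 were lower, against 21.9%. RPL3, a protein close to the catalytic centre of the large subunit, was 1 of the 5, at 17.3 against 11 per 10000, a ratio of 1.56 (1.35 to 1.81).

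The same layers could be set side by side between the animals. In inner retina, the level of NHP2 was 0.924 of that of NHP1 (0.910 to 0.937), and the median over 68 members was 0.933 against 1.02 over all 4541 genes. Ratios were above 1 for 22 of the 68, against 52.5% of all genes. The second row of RPS27A (ENSMMUG00000013907) was the 1 member at least 1.5-fold higher in NHP2, against 7.64% of all genes, at 2.42 against 1.10 per 10000, a ratio of 2.21 (1.63 to 3.0). RPL17 was the 1 at least 1.5-fold lower, against 7.36%, at 10.3 against 15.9, a ratio of 0.650 (0.581 to 0.726). RPL18 was next highest at 1.33, followed by RPL15 at 1.16, RPS4Y1 at 1.14 and RPL5 at 1.13. RPL38 at 0.726, RPL9 at 0.729, RPL35 at 0.731 and RPS9 at 0.748 were the next lowest.

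Sclera differed more. There, 26 of 64 members were at least 1.5-fold lower in NHP2 than in NHP1, against 23.7% of all 878 genes, and 0 were higher, against 26.1%. Ratios were above 1 for 10, against 50.2%. The summed level of NHP2 was 0.768 of that of NHP1 (0.746 to 0.790). RPL39 had the lowest ratio, at 0.255, and RPL28 the highest, at 1.36. Photoreceptor markers in sclera were at 104 per 10000 in NHP1 and 27.8 in NHP2, and the part of this photoreceptor RNA in the difference was not tested.

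Other genes of translation were counted in the same way, beside 14.6% of all genes higher and 35.2% lower in NHP1, and 19.6% and 48.9% in NHP2. Core ribosomal proteins under other symbols included FAU, which carries a small subunit protein fused to a ubiquitin-like protein, and RACK1, a scaffold on the small subunit. RACK1 had ratios of outer coat over neural retina of 1.63 and 2.0, and FAU of 1.01 and 0.555. Of 6 elongation genes, 1 was at least 1.5-fold higher and 1 lower in NHP1, and 1 and 2 in NHP2, with medians of 1.19 and 0.823. EEF1A1, which brings aminoacyl-tRNA to the ribosome, was at 0.943 and 0.368, TPT1 at 1.30 and 0.727, and EEF2, which moves the ribosome along the mRNA, at 1.26 and 2.39. Of the initiation genes, 3 of 25 were higher and 3 lower in NHP1, and 5 of 24 were higher and 7 lower in NHP2, with medians of 0.981 and 0.874. EIF4A2, an mRNA helicase, was at 0.677 and 0.756, EIF4G2 at 0.747 and 0.609, and EIF3K at 1.30 and 0.800. Of the ribosome biogenesis genes, 0 of 10 were higher and 3 lower in NHP1, and 2 of 5 were higher and 2 lower in NHP2. The medians of 0.727 and 1.16 thus cover unlike sets of genes. As a sum, the list had ratios of 0.891 (0.785 to 1.01) and 0.962 (0.819 to 1.13), with intervals that included 1. NCL, which encodes nucleolin, was at 1.05 and 1.54, NPM1, which encodes nucleophosmin, at 1.11 and 0.437, and the gene named NHP2, which encodes a protein of small nucleolar ribonucleoproteins, at 0.861 and 0.277.

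Proteins of the mitochondrial ribosome, which is built from another gene set, went the other way from the cytosolic ones in NHP1. Their summed ratio was 0.792 in NHP1 (0.747 to 0.839) and 0.482 in NHP2 (0.440 to 0.527), with 0 of 63 and 1 of 35 at least 1.5-fold higher and 18 and 27 lower. Of all genes, 14.6% and 19.6% were higher and 35.2% and 48.9% lower. The list had medians of 0.818 and 0.414, against 0.811 and 0.684 over all genes. MRPL33 was at 0.656 and 0.254, MRPS23 at 0.496 and 0.268, and MRPS21 at 1.01 and 0.459. Mitochondrially encoded genes were at 0.534 and 0.322.

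Space Ranger's Moran's I, a score of how far neighbouring spots resemble each other, was compared without matching depth. Among genes with at least 200 UMIs, the median was 0.0566 for 66 members and 0.0552 for 1364 genes in NHP1, and 0.0683 for 62 members and 0.0505 for 681 genes in NHP2. RPS27A (ENSMMUG00000015563) had the highest score of the members in NHP1, at 0.214, and RPS15 in NHP2, at 0.188. In NHP1, 35 of the 66 members, and in NHP2, 46 of the 62, lay in the upper part of that ranking, above the median.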

How the data were processed

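UMI counts for each spot and gene, unnormalized, are what the authors deposited, made with Space Ranger 2.1.0 from polyA-captured 3′ reads against Mmul_10 with transgene sequences added, with no filter on spots. Reads that match several genes alike are not counted by such a pipeline, so that genes with processed pseudogenes may be undercounted. The deposited file of positions holds a tissue mark, and another file the authors' Moran's I, a score per gene. The deposited sums of counts per gene equalled the matrix for all 13804 and 12542 genes listed. The files share 4341 spot barcodes, which the slide design fixes, 67 of them over tissue in both.

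Of 77 core symbols sought, 15 had no row by symbol. A further 11 rows without a symbol are ribosomal protein genes by the gene table and were kept out of the sums. At least 50 UMIs over tissue were reached by 68 members in each section.

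Tissue spots of each section were clustered without the members (scanpy 1.11.5 and leidenalg 0.10.2 in Python 3.11.15, 2000 variable genes, 20 components, 15 neighbours, resolution 1, seed 1). A region took the name of a class with at least 3 markers of at least 3 UMIs and 1.5-fold, and of every other class with at least 50% as many. The name was dropped if the region's 10 leading genes held more markers of another class. It was also dropped if median depth was far below the section's and no leading gene was a marker of the named class. In NHP2, this left 72 spots with 3 sclera markers and 18 spots with 3 RPE markers unnamed. Counts were pooled by region. Intervals are exact Poisson for levels and conditional binomial for ratios (scipy 1.17.1), at 95%. Genes needed 50 UMIs in the spots compared. The code was tested on simulated data. RefSeq transcripts matched 68 members.

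Named genes were the 10 members with most UMIs, the 5 highest and 5 lowest ratios of outer coat over neural retina in NHP1 and of NHP2 over NHP1 in inner retina, all paralogs and members with 0 UMIs. Others, such as RPL39 and RPL6, were named after their values were seen. The members and lists were chosen with earlier results of these data known. Alternatives changed the regions, the total, the spot and gene minimums and the averaging. Treated sections and single-cell libraries were not analysed here. Some members are not reported by name here, and they stay in the sums and counts.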

Additional observations from a re-analysis of the deposited data

Results flagged for a closer look

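The summed members lay on opposite sides of 1 in the 2 animals when outer coat was set over neural retina, at 1.13 in NHP1 (1.11 to 1.15) and 0.965 in NHP2 (0.943 to 0.987). This drew attention because the same comparison ran in opposite directions in 2 animals. Without the 50 most abundant and the mitochondrially encoded genes in the total, the value of NHP2 was 0.984 with an interval that included 1 (0.962 to 1.01). With 1 section per animal the difference was not tested. Outer coat of NHP1 includes a region with RPE and choroid markers and that of NHP2 does not, and with the sclera regions alone, a setting chosen after seeing the data, the value of NHP1 was 1.14. Mitochondrially encoded genes, which share the total, were at 0.534 and 0.322 in the same comparison.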

How the results depend on the processing

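Of 52 values recomputed under alternatives, 39 stayed within the counting interval or within 1.5 times the count, 13 moved and 0 changed direction. The ratio of outer coat over neural retina in NHP1, 1.13, was 1.18 with each spot assigned by its highest marker score, 1.09 without mitochondrially encoded genes in the total, 1.11 with spots of at least 200 UMIs, 1.20 as the mean of spot shares and 1.15 with inner retina alone in the denominator, an alternative chosen after seeing the data. In NHP2, 0.965 became 0.930 by marker score, 0.919 without mitochondrially encoded genes and 0.846 as the mean of spot shares, and it was 0.984 without the 50 most abundant and mitochondrially encoded genes, with an interval that included 1 (0.962 to 1.01). Members at least 1.5-fold higher in outer coat of NHP2 went from 11 to 7 by marker score. The inner retina ratio of NHP2 over NHP1, 0.924, became 0.955 by marker score, 0.900 without the 50 most abundant and mitochondrially encoded genes, and 0.988 as the mean of spot shares, and the count of members at least 1.5-fold higher there went from 1 to 0 among genes with at least 200 UMIs. At a Leiden resolution of 0.5, NHP2 had no separate inner retina region, and the 2 inner retina results were not computed. No paired analysis was possible because each animal gave 1 section. Depth limits what single spots show, since the median spot of NHP2 held 370.5 UMIs.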

Other observations

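Ribosomal protein genes without a symbol in the feature list, and hence outside the members, were named through a gene table. As a sum, the 11 such rows had a ratio of outer coat over neural retina of 1.0 in NHP1 (0.943 to 1.07) and 0.752 in NHP2 (0.675 to 0.838). RPL36 had 1.69 in both animals. RPS25 had 0.554 in NHP1 and 0.235 in NHP2, and RPL34 had 0.797 and 0.432. RPL14 had 1180 UMIs over tissue of NHP1 and 72 over that of NHP2.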
